A study of Gorilla gorilla gorilla with 13 samples.

Results

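The genes described here encode the classical axon guidance ligands and their receptors. They are the rows of a gorilla count table whose symbol names a semaphorin, plexin, neuropilin, Eph receptor, ephrin, Slit, Robo, netrin, UNC5 receptor or DCC. By that rule on names alone, 66 of 18137 rows were members, 34 ligands and 32 receptors. Of these, 65 had enough counts to be tested, and NTN3, a secreted netrin, did not. The rows came from 13 RNA-seq libraries of sorted cells, all from 1 gorilla induced pluripotent stem cell line (GC1) grown as cerebral organoids, cultures that form cortex-like tissue, for 8 weeks, give or take 3 days. The groups were BCL11B+ neurons (N, n = 2), basal intermediate progenitor cells (bIP, n = 3), basal radial glia (bRG, n = 4) and apical radial glia (aRG, n = 4), with no treatment and no genetic change given in the labels. Apart from BCL11B for neurons, the labels name no antigen of the sort. Libraries were made by Smart-seq2 from RNA of 10000 cells. One of the neuron columns carries a number that no neuron label has, and it is called the unnumbered neuron library.

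Guidance ligands are read by growth cones and by migrating cells. Slits are secreted proteins that act mostly as repellents through Robo receptors, and netrin-1 attracts through DCC or repels through UNC5 receptors. Semaphorins signal through plexins, and most of the secreted class also need neuropilins as ligand-binding partners. Ephrins are membrane-bound, with ephrin-A proteins on a lipid anchor and ephrin-B proteins spanning the membrane, and Eph receptor tyrosine kinases read them on contact. In the developing cortex these systems act in axon growth and neuronal migration, and several members are also known in progenitors.

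Levels are CPM, counts scaled to the size of the library, after TMM scaling, which corrects for RNA composition. They are given for single libraries in the order neuron library 1 and the unnumbered one, then libraries 1 to 3 of bIP and 1 to 4 of bRG and aRG. Because CPM is not divided by transcript length, levels are compared between populations and not between genes. Total counts ranged from 5464721 to 12524938, and the 66 genes took 0.765% to 0.768% of counts in N, 0.713% to 0.776% in bIP, 0.395% to 0.540% in bRG and 0.396% to 0.529% in aRG. Among 65 tested members, bRG library 3 was the lowest of the 4 bRG libraries for 25 and the highest for 21. In bulk RNA, fewer cells of a type and less RNA per cell cannot be told apart. EOMES, the usual intermediate progenitor marker, averaged 6.26 ± 0.677 CPM in N, 85.3 ± 49.1 in bIP, 367 ± 92.9 in bRG and 143 ± 84.4 in aRG, so the bIP libraries did not hold the highest level of the marker of their label. Summed over 6 intermediate progenitor markers, the level was 512 to 568 CPM in N, 362 to 731 in bIP, 731 to 948 in bRG and 319 to 589 in aRG. ELAVL4 made up most of that sum in N and bIP, with means of 454 CPM in N, 332 in bIP, 278 in bRG and 176 in aRG. The other markers of that list, EOMES, PPP1R17, NEUROG2, NHLH1 and NEUROG1, each had their highest mean in bRG. For 6 radial glia markers the sum was 98.8 to 137 CPM in N, 105 to 118 in bIP, 2197 to 3894 in bRG and 2744 to 3628 in aRG. The sum over 6 deep-layer neuron markers was 4632 to 4712 CPM in N, 2754 to 2823 in bIP, 1163 to 2103 in bRG and 968 to 1329 in aRG. The sum over 6 Cajal-Retzius markers was 201 to 238 CPM in N, 1329 to 3523 in bIP, 51.8 to 119 in bRG and 49.4 to 117 in aRG. CALB2 made up most of the sum in N, with means of 143 CPM in N and 122 in bIP. TP73, LHX1 and EBF3 had lower means in N than in bRG and aRG, and RELN and LHX5 had higher ones. For 6 choroid plexus markers the sum was 76.2 to 303 CPM in N, 81.5 to 260 in bIP, 207 to 1236 in bRG and 1597 to 7773 in aRG. The 6 endothelial markers summed to 22.9 to 23.1 CPM in N, 21.7 to 29.7 in bIP, 14.3 to 81.4 in bRG and 44.0 to 118 in aRG. CLDN5 made up most of the aRG sum, with means of 52.1 CPM in aRG and 13.7 in bRG. PECAM1, FLT1, KDR and TEK had higher means in bRG than in aRG, and CDH5 had its highest mean in N. The 6 mesenchyme markers summed to 27.6 to 73.3 CPM in N, 60.3 to 106 in bIP, 69.6 to 97.4 in bRG and 109 to 334 in aRG. No marker of these lists was at 0 in every library of a population, and the part of such cells in the results below was not tested.

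Among the 4 populations, 43 of the 65 tested members differed (66.2%), by edgeR's quasi-likelihood test at an adjusted p under 0.05 over all 16804 genes tested, of which 22.5% differed. These were 24 of 32 receptors and 19 of 33 ligands. Nearly all calls lay between N or bIP and radial glia, since N against bIP gave 1 and bRG against aRG gave 0. SLIT1, DCC, UNC5A, PLXND1, SEMA4A and several Eph receptors stood high in N and bIP, whereas EFNA4, EPHA2, EPHB4, NRP1, UNC5C, NTN4 and SEMA5A stood high in radial glia.

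**Figure D1:**
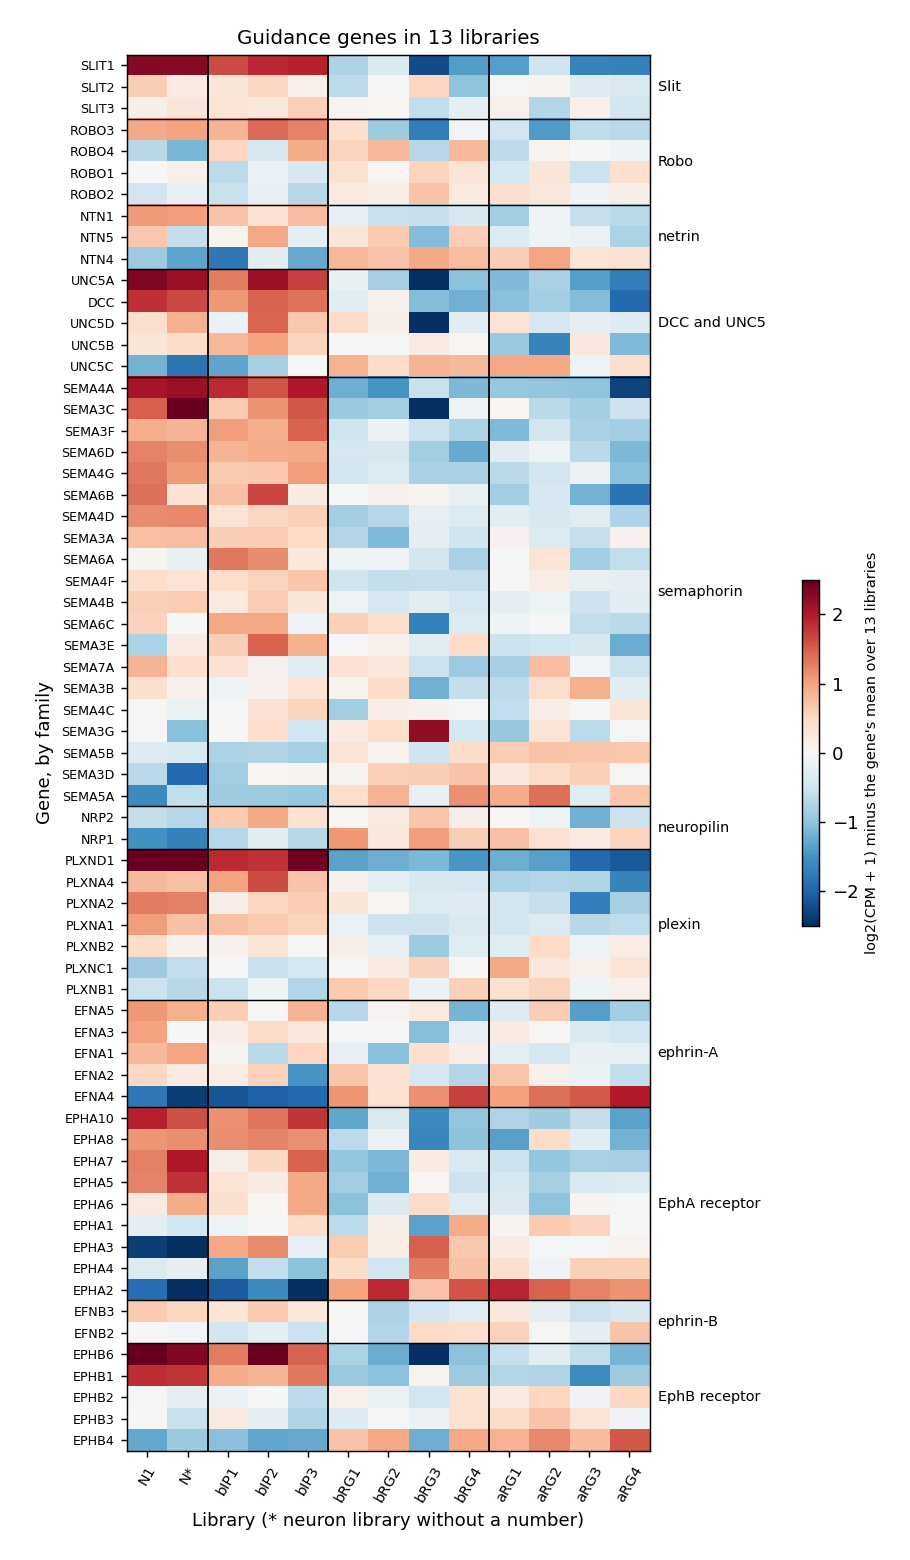
Heat map of the 65 tested guidance genes (rows, grouped by family) in the 13 libraries (columns: N, bIP, bRG, aRG). Colour is log2(CPM + 1) minus the mean of that gene over the 13 libraries, red for above and blue for below, and larger differences share the end colours of the scale. The N and bIP columns resemble each other, SLIT1, UNC5A, SEMA4A, PLXND1, EPHA10 and EPHB6 are red there, and EFNA4, EPHA2 and EPHB4 are blue there.

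Basal intermediate progenitors differed from both kinds of radial glia in most of the list. Against aRG, 38 of 65 members were called (58.5%), beside 18.4% of all genes tested. Of them 28 rose in bIP, with 8.47% of all genes rising, and 10 fell, with 9.98% of all genes falling. The median log2 fold change was 0.74 over the members and -0.0351 over all genes. Against bRG, 36 members were called (55.4%, with 16.7% of all genes), 25 higher and 11 lower in bIP (8.25% and 8.44% of all genes), and the median was 0.63 against -0.0914 over all genes. The deep-layer neuron marker sum was also higher in all bIP libraries (2754 to 2823 CPM) than in all radial glia libraries (968 to 2103), and the part of neurons in the bIP values was not tested. By role, against bRG, 12 receptors rose and 7 fell of 32 tested, and 13 ligands rose and 4 fell of 33. The largest log2 rises against bRG were those of PLXND1 (3.43), EPHB6 (3.34), SEMA4A (2.94) and SLIT1 (2.88), and the largest falls those of EPHA2 (-3.82) and EFNA4 (-3.47).

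Neurons set against radial glia gave counts of the same order. Against bRG, 36 members were called (55.4%, with 19.8% of all genes), 24 higher and 12 lower in N (10.6% and 9.13% of all genes). Against aRG, 37 were called (56.9%, with 19.8% of all genes), 25 higher and 12 lower (10.4% and 9.37% of all genes). Medians were 0.60 for the members and -0.0853 for all genes against bRG, and 0.77 and -0.053 against aRG. These comparisons share libraries with those of bIP, so their counts are not independent. With 2 neuron libraries they lean on each of them: fewer members were called without either of them, in fits that hold 1 neuron library. The share of all genes called in those fits is not given here, so the fall is not read as particular to guidance genes.

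**Figure D2:**
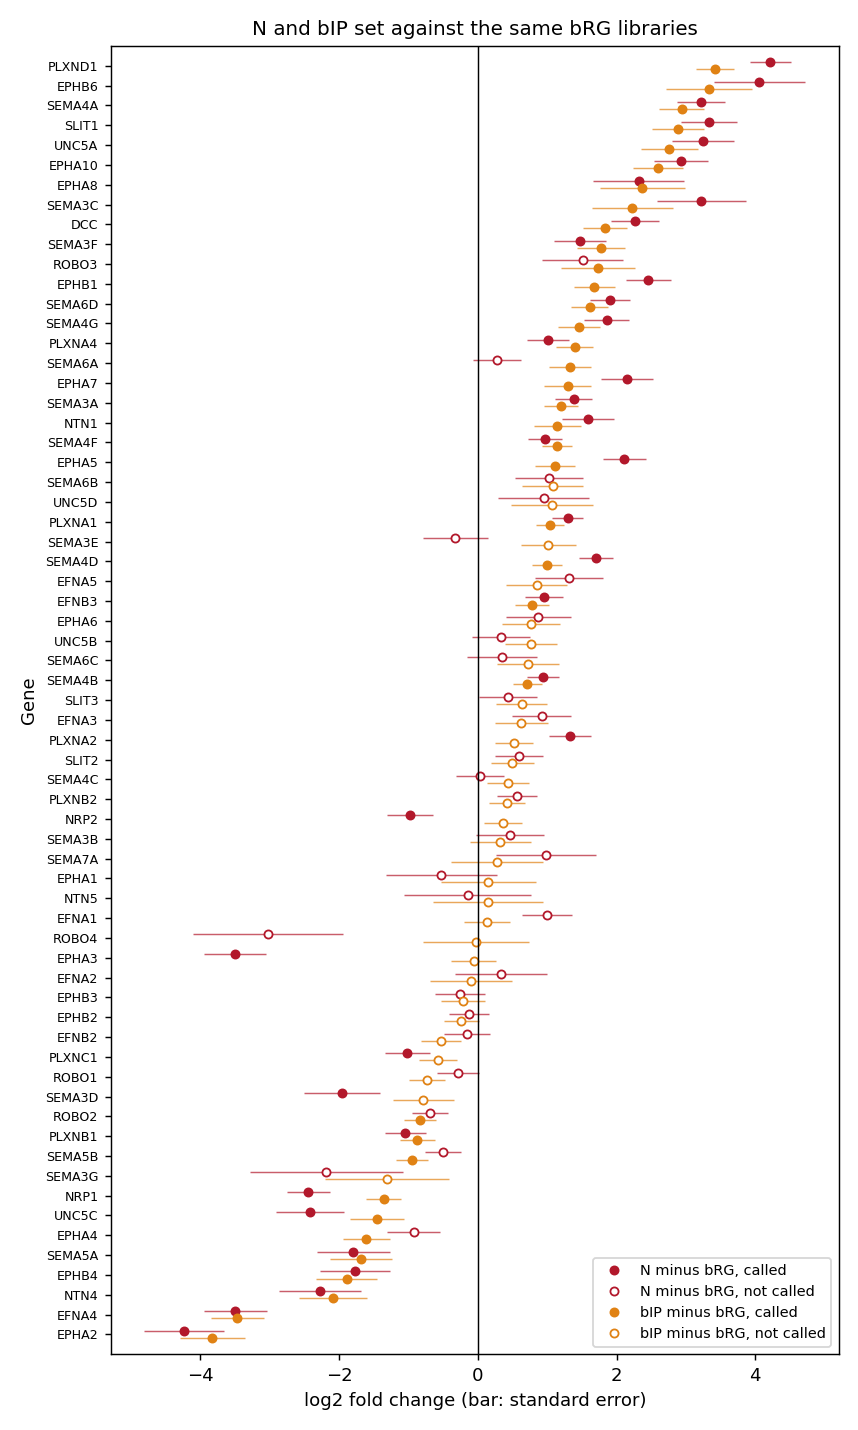
Log2 fold change of each tested guidance gene in N (red) and in bIP (orange), both against the same 4 bRG libraries, with standard errors as bars, ordered by the bIP value. Filled points were called at an adjusted p under 0.05. PLXND1 stands at 4.22 in N and 3.43 in bIP and EPHA2 at -4.23 and -3.82, whereas EPHA3 stands at -3.50 in N and -0.06 in bIP.

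Of the Slit ligands, SLIT1 separated the populations. SLIT1 measured 719 and 714 CPM in N, 456, 541 and 566 in bIP, 84.9, 113, 30.4 and 54.7 in bRG and 55.6, 104, 45.6 and 44.6 in aRG. The N and bIP libraries all lay above 450 CPM and all 8 radial glia libraries below 114. Its log2 fold change was 2.88 ± 0.375 (SE, adjusted p = 3.25e-05) in bIP against bRG and 3.52 ± 0.404 (SE, adjusted p = 5.64e-06) in N against aRG, with 3.06 and 3.34 in the other pairings, and all 4 of its calls held in each removal of 1 library. SLIT2 measured 107 and 81.1 CPM in N, 86.1, 100.4 and 76 in bIP, 44.1, 67.9, 102 and 34.4 in bRG and 71, 72.8, 55.3 and 53.7 in aRG. Its N and bIP libraries lay above all aRG libraries and overlapped those of bRG, and no difference was called (adjusted p = 0.287 in N against aRG). SLIT3 measured 12.1 and 13.9 CPM in N, 14.2, 13.6 and 17 in bIP, 11.4, 11.3, 6.72 and 9.04 in bRG and 11.9, 6.14, 12.1 and 7.63 in aRG, and was likewise not called in any comparison, with a log2 fold change of 0.66 in bIP against aRG.

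The main Slit receptors ran the other way or did not pass the test. ROBO2, which binds Slits and restrains axon growth, measured 169.9 and 203 CPM in N, 159.8, 202 and 143 in bIP, 277, 262, 384 and 277 in bRG and 314, 286, 221 and 259 in aRG. All bIP libraries lay below all radial glia libraries. ROBO2 fell in bIP by 0.68 on the log2 scale against aRG and by 0.83 against bRG (adjusted p = 0.0449 and 0.0166). The first of these calls was lost in 9 of 13 removals of 1 library (adjusted p = 0.0526 to 0.182), those of the unnumbered neuron library, neuron library 1, bIP libraries 1 and 3, bRG libraries 1 and 4 and aRG libraries 1, 2 and 4. The second was lost without bIP library 1 (adjusted p = 0.0776) and without bIP library 3 (adjusted p = 0.0903). ROBO1 measured 138 and 153 CPM in N, 88.4, 126 and 106 in bIP, 183, 146, 207 and 175 in bRG and 102, 173, 96.5 and 188 in aRG, and no comparison was called (adjusted p = 0.0683 in bIP against bRG). ROBO3, a Robo that regulates crossing of the midline in mammals, had low levels at 13 and 13.5 CPM in N, 11.9, 18.3 and 16 in bIP, 8.72, 2.89, 1.18 and 5.9 in bRG and 4.16, 1.71, 3.64 and 3.5 in aRG. It rose in bIP against aRG with a log2 fold change of 2.24 ± 0.542 (SE, adjusted p = 0.00633) and against bRG with 1.73, and in N against aRG with 2.02. The ROBO3 call in bIP against bRG was lost in 4 of 13 removals of 1 library (adjusted p = 0.0537 to 0.119), those of bIP libraries 1, 2 and 3 and bRG library 2. Its call in N against aRG was lost in 3 of 13 removals of 1 library (adjusted p = 0.0544 to 0.103), those of the unnumbered neuron library, neuron library 1 and aRG library 2. ROBO4, known from endothelium, stayed between 0.0933 and 3.60 CPM with no call.

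Of the netrin genes, DCC, UNC5A and NTN1 were higher in N and bIP than in radial glia, and UNC5C and NTN4 were lower. DCC, the netrin receptor of attraction, measured 406 and 359 CPM in N, 243, 318 and 292 in bIP, 93.6, 123, 53 and 48.7 in bRG and 54.9, 63.1, 53.1 and 28.8 in aRG. Every N and bIP library lay above 240 CPM and every radial glia library below 124. The log2 fold change was 2.51 ± 0.323 (SE, adjusted p = 1.89e-05) in bIP against aRG, 1.84 ± 0.317 (SE, adjusted p = 0.000494) in bIP against bRG and 2.26 ± 0.345 (SE, adjusted p = 0.000128) in N against bRG. UNC5A, a repulsive netrin receptor, measured 200.4 and 174 CPM in N, 96.4, 174 and 130.1 in bIP, 33.8, 21.5, 5.66 and 18.5 in bRG and 17.5, 21.7, 14.4 and 11.2 in aRG, with a log2 fold change of 2.76 in bIP and 3.24 in N against bRG, and of 3.05 and 3.54 against aRG. The 5.66 CPM of bRG library 3 was the lowest UNC5A level of the 13. All calls of DCC and UNC5A held in each removal of 1 library.

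NTN1, the secreted ligand netrin-1, measured 24 and 23.6 CPM in N, 18.7, 14.3 and 19.5 in bIP, 9.4, 7.12, 7.07 and 8.09 in bRG and 5.6, 10.3, 6.99 and 6.49 in aRG. Its N and bIP levels did not overlap those of radial glia. NTN1 had a log2 fold change of 1.70 ± 0.37 (SE, adjusted p = 0.00271) in N against aRG and 1.25 ± 0.339 (SE, adjusted p = 0.0135) in bIP against aRG. The NTN1 call in bIP against aRG was lost without bIP library 1 (adjusted p = 0.0561) and without bIP library 3 (adjusted p = 0.0602), and that in bIP against bRG was lost in 3 of 13 removals of 1 library (adjusted p = 0.0526 to 0.0989), those of bIP libraries 1 and 3 and bRG library 2. UNC5C, another UNC5 receptor, went the opposite way at 6.99 and 4.1 CPM in N, 6.27, 9.22 and 16.8 in bIP, 32.1, 23.8, 31.7 and 31 in bRG and 34.3, 34.5, 15.6 and 23.2 in aRG. Its N libraries lay below all radial glia libraries, while bIP library 3 lay above aRG library 3. It fell in N by 2.42 against bRG (adjusted p = 0.00166) and by 2.28 against aRG (0.00227). The first of these was lost without the unnumbered neuron library (adjusted p = 0.0515), and the second likewise was lost without the unnumbered neuron library (adjusted p = 0.064). In bIP it fell by 1.45 against bRG and 1.31 against aRG. The call against bRG was lost without bIP library 1 (adjusted p = 0.0938) and without bIP library 2 (adjusted p = 0.0776), and that against aRG was lost in 4 of 13 removals of 1 library (adjusted p = 0.0673 to 0.138), those of bIP libraries 1 and 2 and aRG libraries 1 and 2.

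NTN4, a netrin of basement membranes, measured 3.06 and 2.05 CPM in N, 1.19, 5.3 and 2.16 in bIP, 12.5, 11.5, 13.7 and 12 in bRG and 10.7, 14, 8.62 and 8.76 in aRG. It was below 5.4 CPM in every N and bIP library and above 8.6 in every radial glia library. NTN4 fell in bIP against bRG, with a log2 fold change of -2.09 ± 0.495 (SE, adjusted p = 0.00629), and that call held in each removal, with -2.85 without bIP library 2. Against aRG the bIP value was -1.85, a call that was lost without bIP library 1 (adjusted p = 0.071) and without bIP library 3 (adjusted p = 0.0657). In N the values were -2.28 against bRG and -2.04 against aRG. The call against bRG was lost without neuron library 1 (adjusted p = 0.0554) and without the unnumbered neuron library (adjusted p = 0.139), and the call against aRG was lost without neuron library 1 (adjusted p = 0.0787) and without the unnumbered neuron library (adjusted p = 0.191). In the gorGor6 table none of the 4 NTN4 calls was made, with adjusted p of 0.13 to 0.156. UNC5B, a UNC5 receptor also known from vessels, measured 32.1 and 35.7 CPM in N, 46.4, 52.5 and 38.4 in bIP, 26, 25, 29.8 and 26.7 in bRG and 13, 7.42, 31.4 and 11.4 in aRG. It was called in bIP against aRG alone, with a log2 fold change of 1.52 ± 0.375 (SE, adjusted p = 0.00715). UNC5D, a UNC5 receptor of migrating cortical neurons in mouse, measured 23.3 and 32.3 CPM in N, 15.1, 48.1 and 27.5 in bIP, 23.9, 18.9, 1.18 and 13.7 in bRG and 21.7, 12.4, 14.1 and 13.3 in aRG with no call and an adjusted p of 0.251 in bIP against bRG. NTN5 stayed below 4.2 CPM with no call, and NTN3 below 1.5 CPM in all 13 libraries.

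**Figure D3:**
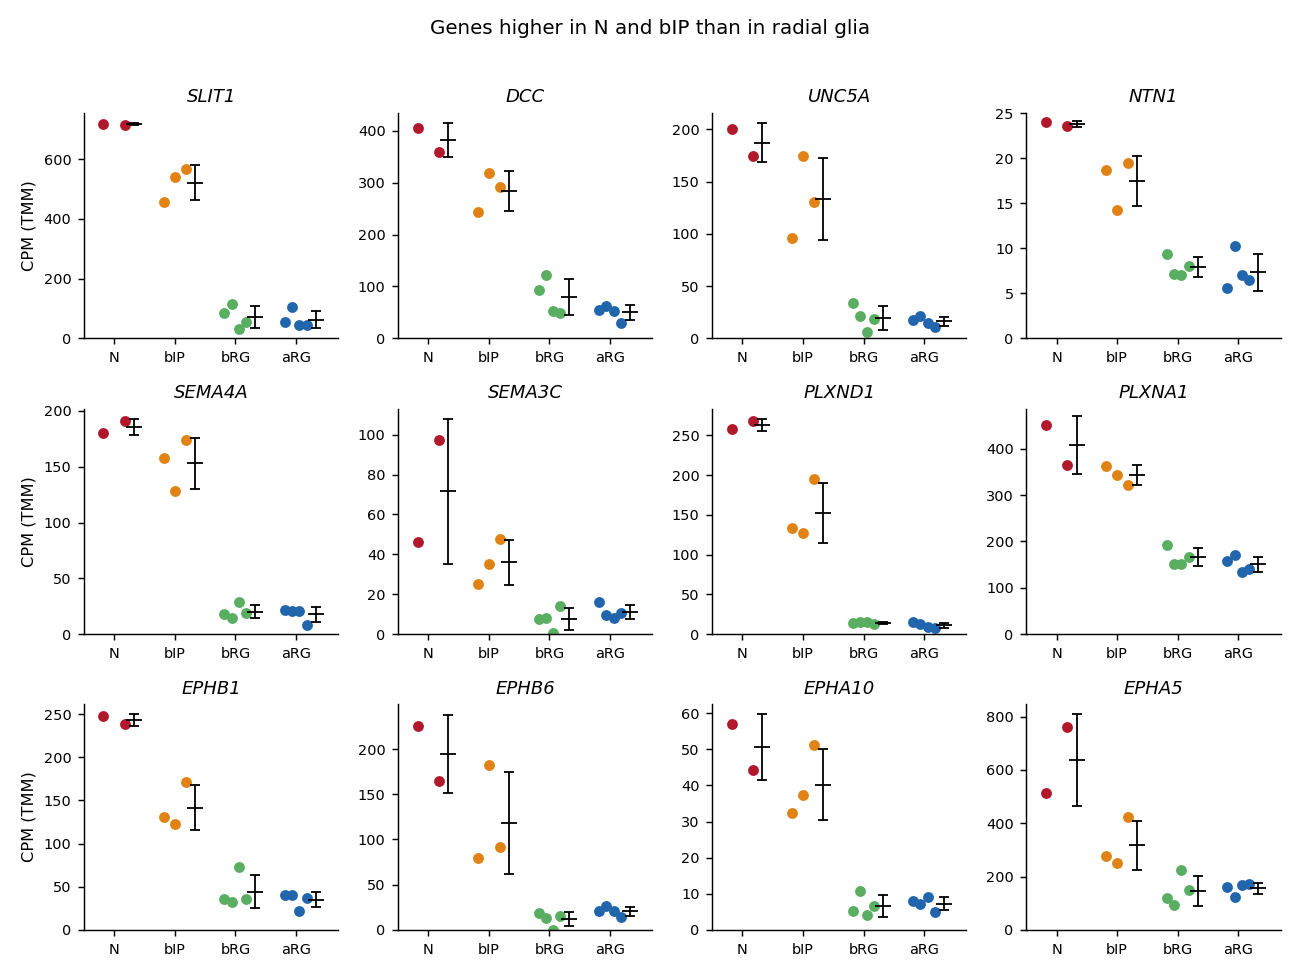
Levels in CPM (linear axis from 0) of 12 guidance genes in N, bIP, bRG and aRG. Coloured points are libraries, and the black mark and bar are the mean and SD. In PLXND1 the N libraries stand at 258 and 268 CPM and the bIP libraries at 127 to 195, and no radial glia library lies above 15.9.

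Semaphorins formed the largest family, with 20 ligands tested. In bIP against bRG 10 rose and 2 fell (8.25% and 8.44% of all genes), and in N against bRG 9 rose and 2 fell (10.6% and 9.13%). SEMA4A, a transmembrane ligand of plexins, measured 180.3 and 191 CPM in N, 158, 128 and 174 in bIP, 17.8, 14.7, 28.4 and 18.8 in bRG and 21.5, 21, 20.8 and 7.73 in aRG. All N and bIP libraries lay above 127 CPM and all radial glia libraries below 29. Its log2 fold change was 3.11 ± 0.327 (SE, adjusted p = 2.09e-06) in bIP against aRG and 3.22 ± 0.347 (SE, adjusted p = 4.64e-06) in N against bRG. The gorGor6 table held 218 counts of SEMA4A, 2.44% of its hg38 count, and the log2 fold changes there were 3.92 and 2.03 (adjusted p = 0.0358 and 0.295). In bIP against bRG it was 1.80 there (adjusted p = 0.398), against 2.94 in the hg38 table. SEMA4D, which binds plexin-B1, had a log2 fold change of 1.00 in bIP and 1.71 in N against bRG, from means of 310.2 ± 3.07 CPM in N, 190.0 ± 16.1 in bIP and 95 ± 20.1 in bRG. SEMA4G rose in bIP (1.46) and in N (1.86) against bRG and so did SEMA6D (1.61 and 1.90), a transmembrane semaphorin. The calls of SEMA4A, SEMA4D, SEMA4G and SEMA6D against either radial glia population held in each removal of 1 library. SEMA4F rose against bRG in bIP (1.14) and in N (0.97), and the N call was lost without neuron library 1 (adjusted p = 0.0745) and without the unnumbered neuron library (adjusted p = 0.051). SEMA4B rose by smaller amounts, 0.72 in bIP and 0.94 in N against bRG. Its call in bIP was lost without bIP library 2 (adjusted p = 0.142) and without bRG library 4 (adjusted p = 0.0587), and its call in N was lost without neuron library 1 (adjusted p = 0.0507) and without the unnumbered neuron library (adjusted p = 0.0681). Against aRG, SEMA4B stood at 0.70 in bIP and 0.92 in N. The bIP call there was lost without bIP library 2 (adjusted p = 0.148) and without aRG library 3 (adjusted p = 0.0738), and the N call was lost without neuron library 1 (adjusted p = 0.0562) and without the unnumbered neuron library (adjusted p = 0.0703).

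Among secreted semaphorins, SEMA3A, the prototype axon repellent, measured 228 and 232 CPM in N, 207, 211 and 190.5 in bIP, 80.7, 62.4, 115 and 95.7 in bRG and 146, 106, 89.5 and 145 in aRG. All N and bIP libraries lay above 189 CPM and all radial glia libraries below 147. It rose against bRG with a log2 fold change of 1.20 ± 0.242 (SE, adjusted p = 0.00189) in bIP and 1.38 ± 0.267 (SE, adjusted p = 0.00112) in N, and both calls held in each removal. Against aRG the values were 0.74 in bIP and 0.92 in N. The bIP call was lost in 8 of 13 removals of 1 library (adjusted p = 0.0502 to 0.122), those of the unnumbered neuron library, neuron library 1, bIP libraries 1, 2 and 3, bRG library 1 and aRG libraries 2 and 3. The N call was lost in 4 of 13 removals of 1 library (adjusted p = 0.0543 to 0.119), those of the unnumbered neuron library, neuron library 1 and aRG libraries 2 and 3. SEMA3C measured 46 and 97.1 CPM in N, 25.1, 35.3 and 47.6 in bIP, 7.69, 8.12, 0.472 and 14.3 in bRG and 16.1, 9.42, 8.14 and 10.6 in aRG. Groups did not overlap between N or bIP and radial glia, and bRG library 3 held 0.472 CPM. SEMA3C rose in N against bRG (3.22, SE 0.641, adjusted p = 0.00145) and against aRG (2.70), and in bIP against bRG (2.23) and against aRG (1.71). Without the unnumbered neuron library the value in N against bRG was 2.59. The call in N against aRG was lost without the unnumbered neuron library (adjusted p = 0.109), and that in bIP against bRG was lost without bIP library 3 (adjusted p = 0.0589). In bIP against aRG the adjusted p was 0.0492, and the call was lost in 11 of 13 removals of 1 library (adjusted p = 0.0528 to 0.17), those of the unnumbered neuron library, neuron library 1, bIP libraries 1, 2 and 3, bRG libraries 1 and 2 and aRG libraries 1, 2, 3 and 4.

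SEMA3F, which signals through neuropilin-2, rose in bIP (1.77) and N (1.47) against bRG and in bIP (2.14) and N (1.84) against aRG. Its call in N against bRG was lost without neuron library 1 (adjusted p = 0.0685) and without the unnumbered neuron library (adjusted p = 0.0642). SEMA3E, a ligand that can bind plexin-D1 directly, measured 5.39 and 11.8 CPM in N, 16, 30.1 and 19.6 in bIP, 9.74, 11.1, 8.02 and 14.3 in bRG and 6.68, 7.14, 7.47 and 3.71 in aRG. The bIP libraries held the highest levels, and the rise against aRG was called (1.81, SE 0.407, adjusted p = 0.0037), while the value in N against bIP was -1.34 (adjusted p = 0.6). SEMA3D, another secreted semaphorin, fell in N, by 1.96 against bRG and 1.78 against aRG. Without neuron library 1 these values were -3.03 and -2.85, and without the unnumbered one -1.32 and -1.14. The SEMA3D call against bRG was lost without the unnumbered neuron library (adjusted p = 0.234), and that against aRG was lost without the unnumbered neuron library (adjusted p = 0.312) and without aRG library 3 (adjusted p = 0.0563).

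SEMA6A, a transmembrane semaphorin read by plexin-A2 and plexin-A4, measured 282 and 237 CPM in N, 674, 613 and 324 in bIP, 249.7, 254, 198 and 153 in bRG and 270.5, 342, 149 and 176 in aRG. bIP libraries 1 and 2 stood above all others, and bIP library 3 lay below aRG library 2. SEMA6A rose in bIP with a log2 fold change of 1.33 ± 0.309 (SE, adjusted p = 0.00545) against bRG and 1.20 ± 0.309 (SE, adjusted p = 0.00998) against aRG. The call against aRG was lost without bIP library 1 (adjusted p = 0.0699) and without bIP library 2 (adjusted p = 0.0509). In bIP libraries 1, 2 and 3 the Cajal-Retzius marker sum ran in the same order as SEMA6A, at 3523, 2490 and 1329 CPM, and its part in the SEMA6A levels was not tested. N was not called against any population (adjusted p = 0.562 against bIP). SEMA6B rose against aRG in bIP (2.21) and in N (2.16), and the N call was lost without neuron library 1 (adjusted p = 0.124).

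Both transmembrane semaphorins of the fifth class fell in bIP. SEMA5B measured 147 and 143 CPM in N, 106, 109 and 104 in bIP, 234, 197, 132 and 256 in bRG and 288, 303, 299 and 298 in aRG. Its aRG libraries held 288 to 303 CPM, above all other libraries. It fell in bIP by 1.48 against aRG (SE 0.235, adjusted p = 0.000159) and by 0.94 against bRG (0.00769). In N it fell by 1.03 against aRG, a call that was lost without neuron library 1 (adjusted p = 0.0836) and without the unnumbered neuron library (adjusted p = 0.104). SEMA5A fell by 1.82 in bIP and 1.94 in N against aRG, and by 1.68 and 1.79 against bRG. In N these were -2.62 and -2.48 without the unnumbered neuron library. The SEMA5A call in bIP against aRG held in each removal. That in N against aRG was lost without neuron library 1 (adjusted p = 0.186), that in N against bRG was lost without neuron library 1 (adjusted p = 0.226) and without bRG library 4 (adjusted p = 0.0541), and that in bIP against bRG was lost in 3 of 13 removals of 1 library (adjusted p = 0.0535 to 0.0549), those of bIP libraries 1, 2 and 3. SEMA3B, SEMA3G, SEMA4C, SEMA6C and SEMA7A were called in no comparison.

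Of the neuropilins, the ligand-binding partners for most secreted semaphorins, NRP1 was lower in N and in bIP than in radial glia. NRP1 measured 28.1 and 24.7 CPM in N, 49.9, 67.5 and 50.6 in bIP, 177, 99, 170.1 and 127 in bRG and 138, 106, 97 and 122 in aRG. The populations did not overlap at any step from N to bIP to radial glia. It fell in bIP with a log2 fold change of -1.35 ± 0.254 (SE, adjusted p = 0.00102) against bRG and in N with -2.44 ± 0.316 (SE, adjusted p = 2.69e-05) against bRG and -2.13 ± 0.311 (SE, adjusted p = 6.65e-05) against aRG, and these calls held in each removal. N against bIP gave -1.09, not called by edgeR (adjusted p = 0.328) and called by DESeq2 (adjusted p = 0.0365). NRP2 measured 66.9 and 61.6 CPM in N, 161, 198 and 133 in bIP, 106, 121, 165 and 115 in bRG and 105, 93.2, 43.8 and 71.2 in aRG. It was higher in bIP than in aRG (1.07, SE 0.276, adjusted p = 0.0101), a call that was lost without bIP library 2 (adjusted p = 0.0674). It was lower in N than in bRG (-0.98, SE 0.329, adjusted p = 0.0437), a call that was lost in 8 of 13 removals of 1 library (adjusted p = 0.051 to 0.25), those of the unnumbered neuron library, neuron library 1, bIP libraries 1 and 2, bRG libraries 2, 3 and 4 and aRG library 2. Against aRG, N overlapped and NRP2 was not called (-0.28, adjusted p = 0.601). Between N and bIP, whose NRP2 levels did not overlap, the log2 fold change was -1.35 (adjusted p = 0.231, DESeq2 adjusted p = 0.0206).

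Plexins are the signalling receptors of semaphorins, and PLXND1 was the member with the smallest adjusted p in all comparisons of N or bIP with radial glia. PLXND1 measured 258 and 268 CPM in N, 134, 127 and 195 in bIP, 13.5, 14.8, 15.8 and 12.5 in bRG and 14.8, 13.3, 8.52 and 7.53 in aRG. Its log2 fold change was 3.80 ± 0.279 (SE, adjusted p = 6.34e-08) in bIP against aRG, 3.43 ± 0.274 (SE, adjusted p = 3.02e-07) in bIP against bRG, 4.22 ± 0.294 (SE, adjusted p = 1.74e-07) in N against bRG and 4.59 ± 0.299 (SE, adjusted p = 1.14e-07) in N against aRG. All N and bIP libraries lay above 126 CPM and all radial glia libraries below 16. PLXNA1 rose by 1.05 in bIP and 1.30 in N against bRG (adjusted p = 0.00124 and 0.000372). PLXNA2, a receptor for SEMA6A, measured 768 and 756 CPM in N, 355, 459 and 489 in bIP, 387, 327, 248 and 253 in bRG and 228, 212, 96.3 and 177 in aRG. N stood above every other library at 756 and 768 CPM, and bIP and bRG overlapped. It rose in N with 2.10 ± 0.299 (SE, adjusted p = 5.41e-05) against aRG and 1.33 ± 0.3 (SE, adjusted p = 0.00404) against bRG, and in bIP with 1.29 against aRG. PLXNA4 measured 172 and 164 CPM in N, 195, 301 and 159 in bIP, 105, 83.5, 73.1 and 71.4 in bRG and 55.8, 58.2, 57.4 and 29.9 in aRG, with rises of 2.12 in bIP and 1.74 in N against aRG and of 1.39 and 1.02 against bRG. The PLXNA4 call in N against bRG was lost in 3 of 13 removals of 1 library (adjusted p = 0.0576 to 0.123), those of the unnumbered neuron library, neuron library 1 and bRG library 4.

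PLXNB1, the receptor of SEMA4D, was lower in N and bIP than in bRG. Its mean was 183 ± 14.5 CPM in N, 206 ± 47.5 in bIP, 377 ± 85.5 in bRG and 336 ± 64.4 in aRG. PLXNB1 fell by 0.87 in bIP and 1.05 in N against bRG, and by 0.88 in N against aRG. The first call was lost in 4 of 13 removals of 1 library (adjusted p = 0.0569 to 0.12), those of bIP libraries 1 and 3 and bRG libraries 1 and 4. The second was lost without neuron library 1 (adjusted p = 0.0936) and without the unnumbered neuron library (adjusted p = 0.169). The third was lost in 6 of 13 removals of 1 library (adjusted p = 0.0505 to 0.265), those of the unnumbered neuron library, neuron library 1, bIP library 1, bRG library 1 and aRG libraries 1 and 2. PLXNC1, a receptor of SEMA7A, fell in N by 1.01 against bRG, a call that was lost without neuron library 1 (adjusted p = 0.238) and without the unnumbered neuron library (adjusted p = 0.125), and by 1.25 against aRG, a call that was lost without neuron library 1 (adjusted p = 0.133) and without the unnumbered neuron library (adjusted p = 0.0594). PLXNB2 was not called, with 4 overlapping groups. The X-linked PLXNA3 is not a row of the hg38 table and was read from the gorGor6 table, which is scaled apart. There it measured 287 and 299.6 CPM in N, 253, 357 and 302 in bIP, 171, 188, 111 and 150.0 in bRG and 127, 197, 134 and 175 in aRG and rose in bIP with a log2 fold change of 0.97 ± 0.256 (SE, adjusted p = 0.0198) against bRG. PLXNB3, also read there, stayed between 1.55 and 8.06 CPM with no call.

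**Figure D4:**
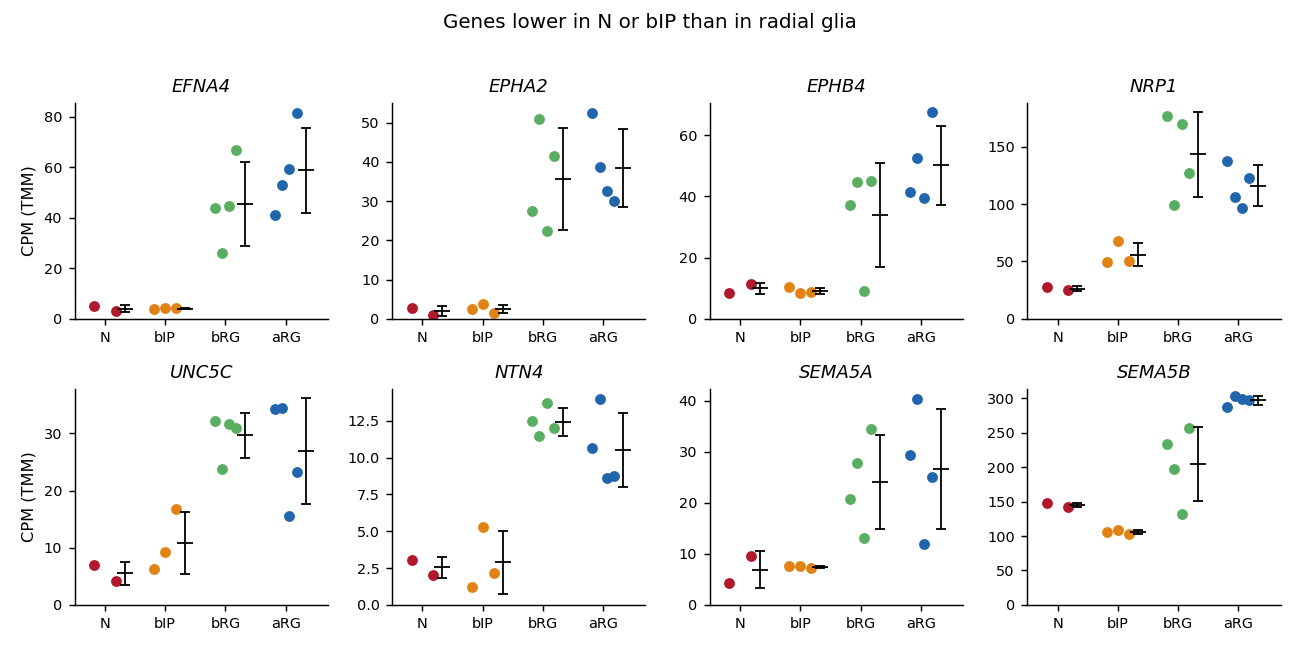
Levels in CPM (linear axis from 0) of 8 guidance genes in N, bIP, bRG and aRG, with libraries as coloured points and mean and SD in black. EFNA4 stands at 3.08 to 5.02 CPM in N and bIP and at 26.1 to 81.5 CPM in radial glia, and the 4 aRG libraries of SEMA5B at 288 to 303 CPM.

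Ephrin ligands divided by member. EFNA4, a lipid-anchored ephrin, measured 5.02 and 3.08 CPM in N, 3.73, 4.14 and 4.4 in bIP, 44.1, 26.1, 44.8 and 66.8 in bRG and 41.2, 53.2, 59.5 and 81.5 in aRG. The highest N or bIP library held 5.02 CPM and the lowest radial glia library 26.1. It fell with a log2 fold change of -3.84 ± 0.389 (SE, adjusted p = 1.4e-06) in bIP against aRG, -3.47 ± 0.382 (SE, adjusted p = 6.52e-06) in bIP against bRG and -3.49 ± 0.456 (SE, adjusted p = 2.91e-05) in N against bRG, and all of its calls held in each removal of 1 library. EFNA3, its neighbour in the RefSeq gorilla annotation (assembly NHGRI_mGorGor1-v2.1_pri), was called in no comparison, with means of 18.9 ± 9.38 CPM in N, 15.4 ± 1.93 in bIP, 9.94 ± 3.17 in bRG and 11.1 ± 2.71 in aRG. EFNA1, next to EFNA3 there, rose in N against aRG (1.18, SE 0.362, adjusted p = 0.0269), a call that was lost in 4 of 13 removals of 1 library (adjusted p = 0.0523 to 0.168), those of the unnumbered neuron library, neuron library 1 and aRG libraries 2 and 4. EFNA1 is listed at 0 in every library of the gorGor6 table, so its call rests on the hg38 table. EFNA5, an ephrin that guides topographic axon maps in mouse, measured 53.6 and 46.6 CPM in N, 38.1, 25.1 and 45.7 in bIP, 14.7, 26.3, 29.1 and 10.4 in bRG and 19.5, 38.3, 8.9 and 13 in aRG. N lay above all radial glia libraries, but no difference was called (adjusted p = 0.0669 against bRG). EFNA2 stayed between 1.53 and 10.4 CPM with no call.

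Of the ephrin-B ligands, EFNB2, which has reverse signalling of its own, measured 233 and 224 CPM in N, 171, 199 and 161 in bIP, 239, 139.9, 327 and 317 in bRG and 349, 240.5, 200.2 and 387 in aRG. The bRG libraries overlapped each other population, while all bIP libraries lay below all N and aRG libraries. No difference was called, with a log2 fold change of -0.73 in bIP against aRG (adjusted p = 0.1). EFNB3 measured 185 and 169 CPM in N, 148, 182 and 139 in bIP, 119, 67.9, 83.3 and 94.1 in bRG and 139, 97.8, 79.8 and 87.6 in aRG. It rose with 0.78 in bIP against bRG and 0.96 in N against bRG and 0.81 in N against aRG. The first call was lost in 5 of 13 removals of 1 library (adjusted p = 0.0564 to 0.17), those of bIP libraries 1, 2 and 3 and bRG libraries 2 and 4. The second was lost without neuron library 1 (adjusted p = 0.124) and without the unnumbered neuron library (adjusted p = 0.0829). The third was lost in 9 of 13 removals of 1 library (adjusted p = 0.0549 to 0.222), those of the unnumbered neuron library, neuron library 1, bIP libraries 1, 2 and 3, bRG library 4 and aRG libraries 2, 3 and 4. EFNB1, the X-linked member of the family, is not in the hg38 table. In the gorGor6 table it measured 66.2 and 42.8 CPM in N, 50.8, 65.9 and 36.6 in bIP, 255, 148, 193 and 249 in bRG and 301, 282, 262 and 331 in aRG. All N and bIP libraries lay below 67 CPM and all radial glia libraries above 147. EFNB1 fell, with a log2 fold change of -2.53 ± 0.3 (SE, adjusted p = 6.09e-06) in bIP against aRG, -2.05 ± 0.293 (SE, adjusted p = 7.87e-05) in bIP against bRG and -1.95 ± 0.343 (SE, adjusted p = 0.000562) in N against bRG.

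Eph receptors of the B class moved both ways. EPHB1 measured 248 and 238 CPM in N, 131, 123 and 171 in bIP, 35.4, 32.8, 72.7 and 35.8 in bRG and 40.6, 40.2, 22.4 and 36.6 in aRG. N stood highest and bIP next, both above all radial glia libraries. Its log2 fold change was 2.02 ± 0.297 (SE, adjusted p = 7.37e-05) in bIP and 2.80 ± 0.323 (SE, adjusted p = 5.85e-06) in N against aRG. EPHB6, whose kinase domain is inactive, rose by 3.34 in bIP and 4.06 in N against bRG. In bRG library 3 EPHB6 held 0.354 CPM, against 13.0 to 18.1 in the other bRG libraries, and its log2 fold change without that library was 2.93 in bIP against bRG. EPHB4, a receptor of EFNB2 known from blood vessels, went the other way at 8.58 and 11.3 CPM in N, 10.3, 8.48 and 8.72 in bIP, 37.3, 44.6, 8.96 and 44.9 in bRG and 41.4, 52.7, 39.3 and 67.5 in aRG. bRG library 3 lay among the bIP and N levels, and it also had the lowest endothelial marker sum of the bRG libraries, 14.3 CPM. The highest aRG sum, 118 CPM, was in library 3, which held the lowest EPHB4 level of the aRG libraries. CLDN5, with a mean of 52.1 CPM in aRG, made up most of the aRG sum. The part of endothelial cells in the EPHB4 levels was not tested. EPHB4 fell by 2.46 in bIP against aRG (adjusted p = 0.000609) and by 1.89 against bRG, and in N by 2.33 and 1.77. The N call against aRG was lost without neuron library 1 (adjusted p = 0.0625), and that against bRG was lost without neuron library 1 (adjusted p = 0.161) and without the unnumbered neuron library (adjusted p = 0.0979). EPHB2 measured 168 and 146 CPM in N, 157, 172 and 109 in bIP, 188, 153, 126 and 223 in bRG and 201, 250.5, 163 and 247 in aRG, with overlapping groups and no call (adjusted p = 0.152 in bIP against aRG). EPHB3 was not called either.

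In the A class, EPHA5, a receptor of ephrin-A5 in axon mapping, measured 515 and 759.7 CPM in N, 277, 251 and 423 in bIP, 118, 94.7, 224 and 151 in bRG and 160.1, 123, 168 and 171 in aRG. The 4 populations fell into an order of N, then bIP, then both radial glia, with no overlap between these 3. EPHA5 rose in N with 2.11 ± 0.315 (SE, adjusted p = 0.000105) against bRG, and in bIP with 1.11 ± 0.287 (SE, adjusted p = 0.0116) against bRG and 1.03 against aRG. The bIP call against bRG was lost without bIP library 3 (adjusted p = 0.0891), and that against aRG was lost without bIP library 3 (adjusted p = 0.118) and without aRG library 2 (adjusted p = 0.0523). EPHA7, another ephrin-A receptor, rose in N (2.15 against bRG) and in bIP (1.29 against bRG and 1.61 against aRG). The EPHA7 call in bIP against bRG was lost without bIP library 3 (adjusted p = 0.139). EPHA10, which lacks kinase activity, measured 57 and 44.2 CPM in N, 32.2, 37.2 and 51.2 in bIP, 5.13, 10.8, 4.01 and 6.57 in bRG and 7.95, 7.14, 9 and 4.95 in aRG, with a log2 fold change of 2.60 ± 0.364 (SE, adjusted p = 6.57e-05) in bIP against bRG and of 2.93 in N against bRG. EPHA8 rose in bIP against bRG (2.37, SE 0.614, adjusted p = 0.0115), in bIP against aRG (1.86) and in N against bRG (2.32). The last of these calls was lost without neuron library 1 (adjusted p = 0.0761) and without the unnumbered neuron library (adjusted p = 0.097), and the one before it was lost in 8 of 13 removals of 1 library (adjusted p = 0.0533 to 0.117), those of the unnumbered neuron library, neuron library 1, bIP libraries 1, 2 and 3 and aRG libraries 1, 3 and 4. The gorGor6 table held 111 counts of EPHA8, 16.5% of its hg38 count, and none of the 3 calls was made there.

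EPHA2, a receptor known from epithelia and stem cells, was at its lowest outside radial glia. It measured 2.82 and 1.03 CPM in N, 2.39, 3.71 and 1.44 in bIP, 27.5, 50.9, 22.4 and 41.6 in bRG and 52.4, 38.8, 32.6 and 30.1 in aRG. The log2 fold change was -3.93 ± 0.473 (SE, adjusted p = 9.53e-06) in bIP against aRG, -3.82 ± 0.471 (SE, adjusted p = 1.93e-05) in bIP against bRG and -4.23 ± 0.579 (SE, adjusted p = 4.66e-05) in N against bRG, and the last was -5.09 without neuron library 1. EPHA4, which binds ephrins of both classes, measured 83.8 and 90.1 CPM in N, 41.2, 69.1 and 52 in bIP, 146, 77.4, 259 and 178 in bRG and 143, 100.1, 162 and 160.2 in aRG. It fell in bIP with -1.61 ± 0.337 (SE, adjusted p = 0.00249) against bRG and -1.38 ± 0.334 (SE, adjusted p = 0.00624) against aRG, while N was not called (adjusted p = 0.0976 against bRG). EPHA1 and EPHA6 were called in no comparison.

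Between neurons and intermediate progenitors 1 guidance gene passed the test. Of 65 members tested, EPHA3 fell in N (1.54%), beside 0.113% of all genes, and none rose. EPHA3, an ephrin-A receptor, measured 17.2 and 11.9 CPM in N, 182, 210.4 and 80.2 in bIP, 144, 105, 261 and 147 in bRG and 107, 90.1, 90.5 and 97.3 in aRG. Both N libraries lay below all 11 others. Its log2 fold change was -3.44 ± 0.455 (SE, adjusted p = 0.00297) in N against bIP, -3.50 ± 0.448 (SE, adjusted p = 2.4e-05) against bRG and -2.73 ± 0.429 (SE, adjusted p = 0.000144) against aRG, and bIP against bRG gave -0.06 (adjusted p = 0.936). The call against bIP was lost without neuron library 1 (adjusted p = 0.0607) and without the unnumbered neuron library (adjusted p = 0.273). It was made in the gorGor6 table too (-3.48, adjusted p = 0.00439). In bIP libraries 1, 2 and 3 the Cajal-Retzius marker sum was 3523, 2490 and 1329 CPM beside EPHA3 levels of 182, 210.4 and 80.2 CPM, and a part of such cells in the difference was not tested. At an unadjusted p under 0.05, 14 members differed by edgeR, 7 higher and 7 lower in N, beside 6.64% of all genes (2.07% higher and 4.56% lower). DESeq2 called NRP2 and NRP1 lower beside EPHA3. Higher ones among the 14 included EPHA5 (1.01), SEMA4D (0.71), PLXND1 (0.79) and PLXNA2 (0.81), and lower ones SEMA6A (-1.05) and SEMA3E (-1.34), none of them past the adjusted threshold.

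**Figure D5:**
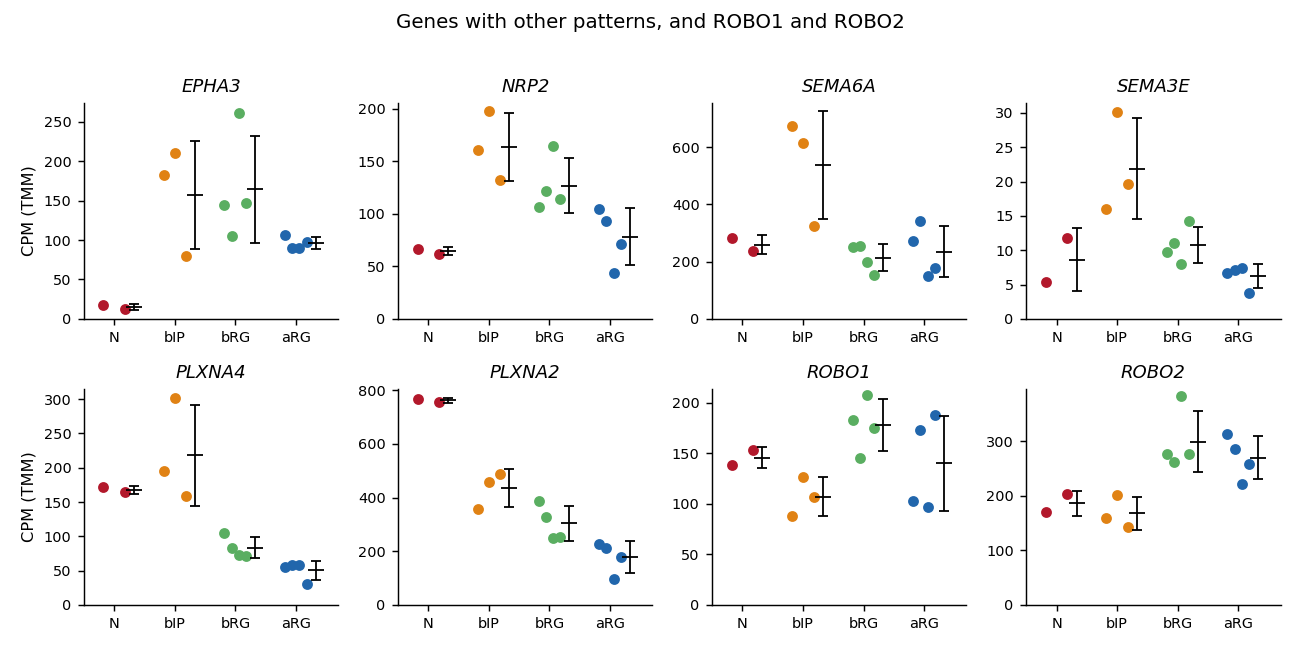
Levels in CPM (linear axis from 0) of 8 guidance genes in N, bIP, bRG and aRG, with libraries as coloured points and mean and SD in black. EPHA3 stands at 11.9 and 17.2 CPM in N and at 80.2 CPM or above in every other library, NRP2 and SEMA6A have their highest mean in bIP, and PLXNA2 its highest levels in N.

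No guidance gene passed the test between basal and apical radial glia. Calls in bRG against aRG were 0 of 65 by edgeR, beside 1.26% of all genes (0.0298% higher and 1.23% lower in bRG), and 0 by DESeq2. The 6 basal radial glia markers summed to 1193 to 2127 CPM in bRG and 1693 to 2272 in aRG, with overlap, and HOPX among them averaged 65.7 ± 29.1 CPM in bRG and 149.9 ± 67.4 in aRG (SD over 4 libraries). PTPRZ1, FAM107A, MOXD1 and LIFR also had lower means in bRG than in aRG, while TNC had a higher one (91.0 against 86.7 CPM). At an unadjusted p under 0.05, 10 members differed, 8 higher and 2 lower in bRG, beside 9.47% of all genes (3.28% higher and 6.19% lower). PLXNA2 had the smallest p. It held 304 ± 66.1 CPM in bRG against 178 ± 58.5 in aRG (SD over 4 libraries), with a log2 fold change of 0.77 ± 0.256 (SE, adjusted p = 0.254). PLXNA4 (0.72) and NRP2 (0.70) were next, and none of the 3 genes overlapped between bRG and aRG. SEMA6B (1.13) and EPHA3 (0.77) were also higher by value, and SEMA5B (-0.54) and SEMA4F (-0.52) lower. UNC5B was called higher in bRG without aRG library 3 (log2 fold change 1.34, adjusted p = 0.0294), where it held 31.4 CPM against 7.42 to 13.0 in the other aRG libraries. No label ties these libraries to separate cultures, so every p given here rests on a spread that may be technical.

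Other genes of the guidance pathways were read from a list of 64 co-receptors and effectors, of which 61 were tested. In bIP against bRG 26 rose and 6 fell (8.25% and 8.44% of all genes), and in bIP against aRG 21 rose and 6 fell (8.47% and 9.98%). In N 25 rose and 5 fell against bRG (10.6% and 9.13% of all genes), and 21 rose and 4 fell against aRG (10.4% and 9.37%). FLRT2, a membrane ligand of UNC5 receptors, averaged 330.0 CPM in bIP and 62.2 in bRG, a log2 fold change of 2.41 ± 0.225 (SE, adjusted p = 1.33e-06). ABLIM3, an actin-binding protein related to a worm protein of axon guidance, rose by 2.79 and CDK5R1, the activator of CDK5, by 2.01. NEO1, or neogenin, a receptor related to DCC, rose in N against bRG (2.58, SE 0.241, adjusted p = 1.45e-06). DOCK1, an exchange factor that activates RAC below DCC, fell by 2.07 in bIP against bRG. VAV3, an exchange factor below Eph receptors, fell by 2.58 there, and RGMA, a ligand of neogenin, by 1.10. In N against bIP and in bRG against aRG none of the 61 was called by edgeR, with 10 and 8 at an unadjusted p under 0.05 (6.64% and 9.47% of all genes), while DESeq2 called LRRC4C, a ligand of netrin-G proteins, lower in N than in bIP (-2.31, DESeq2 adjusted p = 0.00262) and SRGAP2, a GTPase-activating protein of Slit-Robo signalling, lower in bRG than in aRG (-0.72, DESeq2 adjusted p = 0.00345).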

How the data were processed

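Per the file headers, the authors deposited raw, unnormalized counts, with libraries as columns and symbols as rows, once for hg38 (used here) and once for gorGor6. That second name stands in the file name alone. Per the submitters' processing notes, STAR and hg38 were used, with no role given. The sources used here do not give the annotation, the counter or strandedness, so reads shared by paralogs or by overlapping neighbours are uncertain. None of the 16328 hg38 symbols found in RefSeq lies on X or Y, so EFNB1, PLXNA3 and PLXNB3 were read from gorGor6. A gorGor6 row without a symbol (0.00351% to 0.00768% of counts) was left out.

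All 13 libraries entered 1 edgeR 4.0.16 fit (quasi-likelihood F-test, TMM, R 4.3.3, filterByExpr with a minimum count of 10). Adjusted p in the text are edgeR's, by Benjamini-Hochberg over 16804 genes, with calls at 0.05, unless DESeq2 is named. Standard errors come from the fold change and its F. Tests were first run on simulated counts. The members and lists were chosen with earlier results of these data known. Called members are named with a fold change. Values in every library are given for the 4 smallest adjusted p per direction and comparison and for a set of classical ligands and receptors. UNC5A, UNC5B, NTN4, ROBO3, SEMA3E, SEMA6A and PLXNA3 were detailed after their values were seen. Within a population, any 2 libraries differed by a chi-square of 10.6 to 92.4 per degree of freedom, more than sampling noise gives, so none was treated as a repeat deposit of another. Alternatives tried were DESeq2 1.42.0, DESeq2 scaling inside edgeR, no filter, gorGor6, a replicate block, a split term, pairwise fits and the removal of each library.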

Additional observations from a re-analysis of the deposited data

Results flagged for a closer look

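In 130 groups of 4 libraries (65 members in bRG and in aRG), 7 held a library that stood apart from the rest by Dixon's test of the gap against the range. Chance gives about 1 in 20. In bRG library 3, EPHB1 measured 72.7 CPM against 32.8 to 35.8 in the other bRG libraries, ROBO2 384 against 262 to 277, and SEMA3G 11.3 against 0.952 to 2.56. UNC5C measured 23.8 CPM in bRG library 2, with 31.0 to 32.1 in the other 3. In aRG library 4, PLXNA4 measured 29.9 CPM against 55.8 to 58.2, and SEMA4A 7.73 against 20.8 to 21.5. EFNA1 measured 32.8 CPM in aRG library 2 and 38.7 to 39.5 in the rest.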

How the results depend on the processing

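Of 148 calls over the 6 comparisons, none changed direction in any alternative, and 96 were made in each of 13 removals of 1 library. Calls kept numbered 148 with DESeq2, 147 with its size factors in edgeR, 147 without the filter, 125 of 147 tested in gorGor6, 131 in pairwise fits and 124 with libraries 1 and 2 against 3 and 4 as a term. With the replicate number as a block and 12 numbered libraries, 117 were kept. Both of the last lack a neuron library. Same-numbered libraries deviated together by correlations of 0.0411 to 0.449 in bRG and aRG, 0.0868 to 0.194 in bIP and aRG and 0.0953 to 0.174 in bIP and bRG. For neuron library 1 the correlations with library 1 of bIP, bRG and aRG were 0.219, 0.195 and 0.132. All of these were above 0, and a shared culture or batch was not tested. The numbers were not taken as pairs, since 2 of 4, 1 of 3 and 0 of 3 libraries in the first 3 pairings correlated best with their own number. In N against bIP, 1 member was called, but 3 by DESeq2, 2 in the pairwise fit, and 0 with the replicate block or the split term, and 0 to 1 over the removals. In N against bRG the count was 36, but 20 with the replicate block, and 23 to 41 over the removals. In bRG against aRG it was 0, and 0 to 1 over the removals. The removals gave 30 to 42 calls in bIP against aRG, 27 to 37 in bIP against bRG, 25 to 39 in N against aRG and 38 to 48 among the 4 populations. The causes were not tested. The share of all genes called in each alternative is not given here, so the changes are not read as particular to guidance genes. DESeq2's scaling moved the median of all genes by -0.055 to 0.022. Neuron contrasts rest on 2 libraries, and genes below a few CPM, such as ROBO4, NTN5 and EPHA1, could show only large differences.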

Other observations

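Members that neighbour each other in the RefSeq gorilla annotation (assembly NHGRI_mGorGor1-v2.1_pri) are given side by side, with no test of the differences between them. EFNA1, EFNA3 and EFNA4 follow one another, and in N against aRG their log2 fold changes were 1.18, 0.77 (not called) and -3.87. ROBO3 and ROBO4 are adjacent as well, with 2.02 and -2.05, the second not called. ROBO2 and ROBO1 had -0.53 and 0.06, neither called, and -0.83 and -0.73 in bIP against bRG, the second not called. SEMA3A and SEMA3E are adjacent, with 0.92 and 0.47 in N against aRG, the second not called.

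The 2 deposited tables differed in the counts of members. EFNA1 and SEMA3B, with 5631 and 2027 counts in the hg38 table, were listed at 0 in every gorGor6 library. NTN5 held 44.0% of its hg38 count there. The other 61 members, apart from SEMA4A and EPHA8, held 99.7% to 235% of it. Total counts were larger in every gorGor6 library, for example 19096648 against 9150566 in neuron library 1. A member near 100% thus held a smaller share of counts there. The lowest of the 61 were SEMA6B (99.7%), EPHA6 (108.3%), EPHB2 (108.5%) and DCC (108.9%). DCC averaged 200 CPM in N there, against 382 in the hg38 table. Of the 148 calls, 147 could be tested in gorGor6, and all 147 had the same direction there. Beside those of NTN4, EPHA8 and SEMA4A, the calls not made there were those of SEMA4B, SEMA3C, SEMA3A and ROBO2 in bIP against aRG, of ROBO2 and PLXNB1 in bIP against bRG, of SEMA3D, PLXNC1, PLXNB1 and NRP2 in N against bRG, and of SEMA3D, PLXNB1 and EFNB3 in N against aRG, with adjusted p of 0.0582 to 0.193.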
